A study of Mus musculus with 3 samples.

Results

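The genes described here are those of the mouse major histocompatibility complex (MHC), which carry symbols beginning with H2-, together with 11 genes of antigen processing and its regulation (B2m, Tap1, Tap2, Tapbp, Psmb8, Psmb9, Psmb10, Ciita, Cd74, Nlrc5 and Erap1). They were taken by gene symbol, without use of their values, from 3 one-colour Agilent arrays. They came to 45 of the 20655 named genes, read by 55 of the 27228 named probes. They comprised 2 classical class I genes, 22 nonclassical class I genes, 9 class II genes, the 11 processing and regulatory genes and H2-Ke6, which lies among the H2 genes but encodes a hydroxysteroid dehydrogenase. Of 61 symbols that fit the choice in the RefSeq annotation of the mouse, 45 had a probe that could be named, and the other 16, of which 10 are pseudogenes, were not analysed here.

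The study compared induced hepatocyte-like cells with primary hepatocytes and with the fibroblasts from which the induced cells were made. The iHep array held hepatocyte-like cells, made from primary fibroblasts of SiO2-remodelled mouse spleens by a vector labelled LV-3TF (by its name a lentivirus with 3 transcription factors) and collected at day 14. The PH array held freshly isolated primary mouse hepatocytes, the positive control, and the MF array held the same kind of spleen fibroblasts given the control vector LV-NC and kept for 14 days. Each array read RNA pooled from 5 samples of mice labelled female, so each group had 1 array and no p-value can be given; the strain, the age and the names of the factors are not given in the sources used here.

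A level below is the log2 of a probe's background-subtracted signal after division by the 75th percentile of its array, so that a level of 0 is the brightness of the 75th percentile. Levels of single genes read by different probes are not compared with each other. The signals summed over marker lists are an exception. They mix probes, and each sum holds only the genes well above background on that array. A gene is called higher or lower where its array signals differed by 2-fold or more. Where the dimmer signal was not well above background, the fold is given as "at least". It is measured against the dimmest signal the array could resolve, or against the dim signal itself where that was higher. Repeated spots of a probe put an SD of 0.120 to 0.132 on a log2 difference between arrays, which covers spot error only, whereas different probes for the same gene disagreed by more: the SD was 0.847 between iHep and MF, 1.11 between PH and MF, and 1.09 between iHep and PH. The 75th percentile signal was 3752 in iHep, 2081 in PH and 544.3 in MF, and 16436, 17376 and 15072 genes were well above background on those arrays. Per the file headers the MF array was scanned on another day than the iHep and PH arrays, which were scanned together, so scan and group cannot be told apart in either comparison with MF.

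Marker genes of the labelled cells were read first. Of 10 hepatocyte markers, 9 were well above background in iHep, 10 in PH and 5 in MF, and the signal summed over those was 2.96, 599 and 0.28 times the 75th percentile. Hnf4a alone gave 69.6% of the iHep sum. Gene by gene, 3 of 9 hepatocyte markers were at least 2-fold higher and none lower in iHep over MF, all 10 were higher in PH over MF and all 10 were lower in iHep over PH, and Alb, which encodes albumin, had a level of -4.75 in iHep, 6.67 in PH and -5.20 in MF. Over all compared genes, 20.0% were higher in iHep over MF, 30.9% higher in PH over MF and 36.0% lower in iHep over PH. Of 10 fibroblast markers, 9, 10 and 10 were well above background in iHep, PH and MF, with summed signals of 53.9, 84.1 and 615.0 times the 75th percentile. The pools also held markers of leukocytes and endothelium, whose values stand beside the class II genes below. In such bulk pools, fewer cells of a type and less RNA per cell cannot be told apart.

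Class I molecules pair a heavy chain with beta 2-microglobulin and show peptides cut by the proteasome, carried by TAP into the endoplasmic reticulum and loaded there, to CD8 T cells. Nearly all nucleated cells make the classical class I chains, and interferons raise them through factors that include NLRC5. Class II molecules carry peptides cut in endosomes, are made mainly by dendritic cells, macrophages and B cells, and depend on the transactivator CIITA and on the invariant chain CD74.

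By the median over all members, signals were higher in PH than on the other arrays, and iHep lay close to MF. Single genes departed from this, among them 3 H2-M10 genes that were highest in iHep. In PH over MF, 27 of the 42 members that could be compared were at least 2-fold higher, 2 were at least 2-fold lower and 13 lay in between, where 30.9% of all compared genes were higher and 25.4% lower by that rule. In iHep over MF, 9 of 41 were higher, 4 lower and 28 in between, beside 20.0% and 23.4% of all genes. In iHep over PH, 3 of 42 were higher, 28 lower and 11 in between, beside 23.2% and 36.0% of all genes. The members' median log2 difference was 0.08 in iHep over MF, 1.95 in PH over MF and -1.56 in iHep over PH, against 0.09, 0.12 and -0.30 over all genes. Background correction by normexp moved the all-gene medians to -0.64, -0.50 and -0.42. Quantile normalization moved them to 0.18, -0.18 and 0.19.

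**Figure D1:**
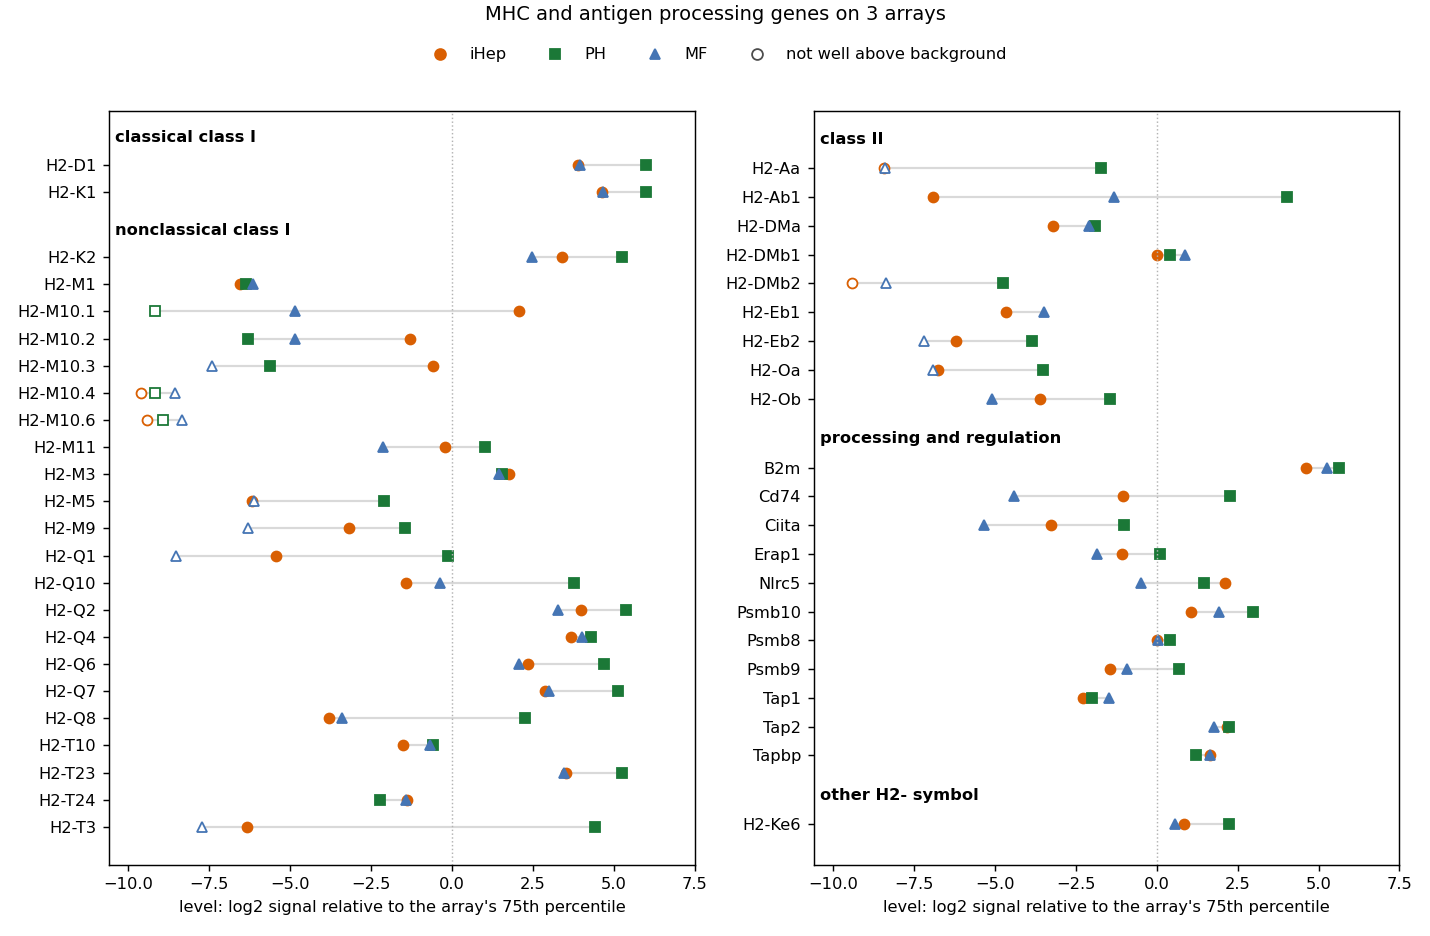
Level (log2 of signal over the array's 75th percentile) of each MHC and antigen processing gene on the iHep, PH and MF arrays, 1 array of 5 pooled samples each. Filled points mark genes with a detected probe and open points genes with none, and H2-Eb1 has no PH point because its spot was marked as an outlier. Most class I chains sit highest in PH, H2-Ab1 spans the widest range of the class II genes, and H2-M10.1, H2-M10.2 and H2-M10.3 sit highest in iHep.

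Both classical class I genes were higher in PH than in iHep or MF, and differed little between iHep and MF. H2-D1, a heavy chain that presents peptides to CD8 T cells, had a level of 3.90 in iHep, 5.99 in PH and 3.96 in MF. PH was thus 4.09-fold above MF and iHep 4.27-fold below PH. H2-K1, the other classical heavy chain, was read by 10 spots of its main probe, with a level of 4.62 ± 0.05 in iHep, 5.98 ± 0.11 in PH and 4.66 ± 0.03 in MF (SD of spots on 1 array). PH was 2.49-fold above MF and iHep 2.57-fold below PH, log2 differences of 1.32 and -1.36. The spots repeat 1 probe on 1 array, so their spread does not measure the difference between groups. Different probes for the same gene disagreed with an SD of 1.11 and 1.09 in these comparisons. A second H2-K1 probe read 3.94 in iHep, 5.55 in PH and 3.20 in MF, so it put iHep above MF where the first probe put the arrays level. The direction of iHep against MF was not settled for either gene, since it changed between processing settings, from -0.04 to 0.73 for H2-K1 and from -0.06 to 0.36 for H2-D1 as log2 differences. In PH over MF the median of the pair was 1.67 and lay between 1.39 and 1.93 in 9 settings.

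B2m, the light chain that every class I heavy chain needs, had a level of 4.61 in iHep, 5.64 in PH and 5.25 in MF. PH was 1.31-fold above MF, inside the 2-fold limit, and iHep was 2.05-fold below PH. The log2 difference of B2m in iHep over MF was -0.64 and ran from -0.64 to 0.23 across settings, so its direction changed with the processing.

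The promoters of the classical genes are printed because they hold the enhancer A palindrome, a kappa B element that NF-kappa B factors bind in class I genes (the first run of capitals in H2-K1 and in H2-D1), and the promoter of H2-Q10 because its closest run of letters differs from it. Each run is the 250 bases before the RefSeq start site on build GRCm38.p6, written 5′ to 3′ on the gene's own strand, with capitals at the palindrome and at CCAAT or its reverse complement ATTGG. In H2-Q10 the capitals mark the closest match to the palindrome.
H2-K1: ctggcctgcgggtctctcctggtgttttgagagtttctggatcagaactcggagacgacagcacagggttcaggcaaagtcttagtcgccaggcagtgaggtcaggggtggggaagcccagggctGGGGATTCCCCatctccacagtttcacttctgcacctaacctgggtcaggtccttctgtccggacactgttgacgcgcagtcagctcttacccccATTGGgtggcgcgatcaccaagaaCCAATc
H2-D1: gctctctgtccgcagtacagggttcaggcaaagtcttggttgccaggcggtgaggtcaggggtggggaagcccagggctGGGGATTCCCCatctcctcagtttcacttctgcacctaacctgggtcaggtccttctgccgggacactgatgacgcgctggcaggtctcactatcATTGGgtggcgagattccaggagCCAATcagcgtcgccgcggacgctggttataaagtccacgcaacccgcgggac
H2-Q10: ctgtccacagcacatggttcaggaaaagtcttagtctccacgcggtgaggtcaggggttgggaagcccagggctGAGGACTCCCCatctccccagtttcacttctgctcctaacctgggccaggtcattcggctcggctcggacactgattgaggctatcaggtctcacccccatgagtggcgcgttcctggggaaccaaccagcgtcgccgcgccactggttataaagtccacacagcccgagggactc
They lie at chr17:34000334-34000583 on the minus strand for H2-K1, at chr17:35262844-35263093 on the plus strand for H2-D1 and at chr17:35469839-35470088 on the plus strand for H2-Q10. The palindrome began at base -125 of H2-K1 and base -171 of H2-D1, counted from the start site. In H2-Q10 the closest run, GAGGACTCCCC at base -176, carried G2A and T6C, each written as the palindrome's base, its position from 1 at the palindrome's 5′ end, and the base in the promoter.

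The palindrome was searched on both strands of all 32851 RefSeq promoter windows of 300 bases (250 before and 50 after a start), and 10 windows held it, or 0.0304%. Of 17 nonclassical class I genes with a window, H2-Q6 alone held it, at base -173. H2-Q4, H2-Q7 and H2-M3 held a run with 1 mismatch, written C8T, C11A and G3A. The core of the interferon-stimulated response element was searched as a single strict pattern of letters, present in 3.44% of all windows. That pattern was found in H2-T23 and in B2m among the class I genes and their light chain. Variants of the pattern were not searched. The lack of a match in H2-K1, H2-D1 or H2-Q10 therefore does not show that such an element is absent there. CCAAT, on either strand, was in 37.4% of all windows and in the windows of 2 of 2 classical and 14 of 17 nonclassical genes. A match of letters is a description of the window, not evidence of a bound site.

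The nonclassical class I genes differed in pattern between the H2-Q, H2-T and H2-M families. Over the 20 that could be compared, 12 were higher and 2 lower in PH over MF, beside 30.9% and 25.4% of all genes. In iHep over MF 5 were higher and 1 lower, beside 20.0% and 23.4% of all genes. In iHep over PH 3 were higher and 12 lower, beside 23.2% and 36.0% of all genes. Their median log2 difference was 2.14 in PH over MF, 0.30 in iHep over MF and -1.56 in iHep over PH, with the same signs in 9 settings.

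The H2-Q genes were mostly brightest in PH. H2-Q10, which encodes a secreted class I molecule made by the liver, had a level of -1.43 in iHep, 3.78 in PH and -0.37 in MF. PH was 17.8-fold above MF, and iHep was 37.1-fold below PH and 2.09-fold below MF. A second H2-Q10 probe read -3.55 in iHep, 6.34 in PH and -4.35 in MF, so both probes put PH far above the other arrays and disagreed on the order of iHep and MF. H2-Q8, of the GPI-anchored Qa-2 group, had a level of -3.81 in iHep, 2.26 in PH and -3.39 in MF, which placed PH 50.2-fold above MF and iHep 67.5-fold below PH. H2-Q6, also of the Qa-2 group, read 2.35 in iHep, 4.70 in PH and 2.08 in MF (PH 6.17-fold above MF). H2-Q7, which encodes a Qa-2 chain, read 2.88 in iHep, 5.14 in PH and 2.98 in MF (PH 4.46-fold above MF). All of the Qa-2 genes measured were thus higher in PH, with iHep within 2-fold of MF.

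H2-Q1 read -5.44 in iHep and -0.11 in PH, and in MF its -8.54 was not well above background, so PH was at least 73.1-fold above MF. Normexp turned its iHep over MF log2 difference to -1.18. H2-Q2 had a level of 3.99 in iHep, 5.39 in PH and 3.26 in MF, with PH 4.37-fold above MF. H2-Q4 was the H2-Q gene within 2-fold in every comparison, at 3.66 in iHep, 4.29 in PH and 4.02 in MF. H2-K2, annotated as a transcribed pseudogene, had 3.40 in iHep, 5.26 in PH and 2.48 in MF, with PH 6.89-fold above MF. The probe sequences are not in the files, so shared signal among near-identical genes such as H2-K1 and H2-K2, or H2-Q6, H2-Q7 and H2-Q8, could not be checked and these values are uncertain for single genes. The H2 genes also differ between strains, and the strain is not given.

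Among the H2-T genes, H2-T3 had the largest difference of any member in PH over MF. H2-T3, the thymus leukaemia antigen, which binds the CD8 alpha homodimer, had a level of -6.33 in iHep, 4.41 in PH and -7.73 in MF, the last not well above background. PH was at least 1679-fold above MF, and iHep was 1712-fold below PH, while the direction of iHep against MF was not settled. H2-T23, which encodes Qa-1, the molecule that shows class I leader peptides to CD94-NKG2 receptors, read 3.53 in iHep, 5.25 in PH and 3.45 in MF. PH was 3.48-fold above MF and iHep 3.29-fold below PH. H2-T10, with -1.52 in iHep, -0.59 in PH and -0.68 in MF, and H2-T24, with -1.39 in iHep, -2.23 in PH and -1.41 in MF, stayed within 2-fold in every comparison.

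The H2-M genes held the members that were higher in iHep than on both other arrays. H2-M10.1, H2-M10.2 and H2-M10.3, known from vomeronasal sensory neurons, lie next to each other in the RefSeq order on chromosome 17 apart from 1 long non-coding RNA gene. H2-M10.1 had a level of 2.05 in iHep, -9.19 in PH, which was not well above background, and -4.85 in MF. The iHep signal was 119.6-fold above MF and at least 494-fold above PH, and PH was at least 4.13-fold below MF. H2-M10.2 read -1.30 in iHep, -6.30 in PH and -4.84 in MF, so that iHep was 11.6-fold above MF and 31.9-fold above PH, while PH was 2.75-fold below MF. H2-M10.3 read -0.59 in iHep, -5.62 in PH and -7.42 in MF, the last not well above background, so that iHep was at least 52.5-fold above MF and 32.7-fold above PH. These 3 genes were the only members at least 2-fold higher in iHep over PH. In iHep over MF their log2 differences stayed positive in every setting that gave a value. They were 5.04 to 6.92 for H2-M10.1, 1.77 to 3.56 for H2-M10.2 and 2.64 to 6.85 for H2-M10.3. The settings reprocess the same arrays, and H2-M10.1 and H2-M10.2 have 1 probe each, so the constant sign is not independent support. The H2-M10.3 call rests on 1 of its 2 probes. Shared signal among these related genes could not be checked, so they may not be 3 separate readings.

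The other H2-M genes measured did not share that pattern. H2-M10.4 and H2-M10.6 were not well above background on any array, and a second H2-M10.3 probe was likewise dim on all 3. H2-M11 read -0.22 in iHep, 1.01 in PH and -2.14 in MF, so it was 3.80-fold higher in iHep and 8.93-fold higher in PH than in MF. H2-M9 read -3.19 in iHep, -1.47 in PH and -6.31 in MF, the last not well above background, which put iHep at least 8.65-fold and PH at least 28.6-fold above MF. A second H2-M9 probe was not well above background on any array, so that call rests on 1 probe. H2-M1 stayed near the limit of detection, at -6.56 in iHep, -6.36 in PH and -6.15 in MF. H2-M3, which shows N-formylated peptides of bacteria and mitochondria, was nearly level, at 1.77 in iHep, 1.54 in PH and 1.44 in MF. H2-M5 read -6.20 in iHep, -2.10 in PH and -6.13 in MF, the last not well above background, so PH was at least 16.3-fold above MF.

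Most class II genes were higher in PH than in MF and lower in iHep than in PH. Of 8 compared in PH over MF, 6 were higher and none lower, beside 30.9% and 25.4% of all genes. Of 8 compared in iHep over PH, none was higher and 7 were lower, beside 23.2% and 36.0% of all genes. In iHep over MF, 1 of 7 class II genes was higher and 3 were lower, beside 20.0% and 23.4% of all genes. The median log2 difference was 3.51 in PH over MF, or 0.11 with normexp, and -2.79 in iHep over PH, between -3.95 and -1.71 across settings. In iHep over MF it was -0.87, but 1.31 with the authors' deposited values, which hold only 3 of these genes and lack H2-Ab1. With genes at their bounds the medians were 2.63 in PH over MF and -2.46 in iHep over PH.

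H2-Ab1, the beta chain of the I-A molecule, had the largest differences of the class in iHep over MF and in iHep over PH. Its level was -6.90 in iHep, 4.03 in PH and -1.32 in MF, and a second probe read -6.72 in iHep, 3.47 in PH and -1.51 in MF. By the first probe iHep was 47.9-fold below MF and 1954-fold below PH, and PH was 40.8-fold above MF. Both probes gave the order PH, MF, iHep, and the log2 difference of iHep over MF stayed between -5.58 and -4.08 across settings.

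H2-Aa, the alpha chain that pairs with H2-Ab1, was well above background only in PH. It read -8.42 in iHep, -1.72 in PH and -8.41 in MF, so PH was at least 24.0-fold above MF and iHep at least 48.8-fold below PH. The H2-Aa promoter is printed because it was the only class II window with the full cAMP response element letters TGACGTCA, the letters known from the X2 box of class II promoters, and also holds CCAAT on the other strand (both in capitals).
H2-Aa: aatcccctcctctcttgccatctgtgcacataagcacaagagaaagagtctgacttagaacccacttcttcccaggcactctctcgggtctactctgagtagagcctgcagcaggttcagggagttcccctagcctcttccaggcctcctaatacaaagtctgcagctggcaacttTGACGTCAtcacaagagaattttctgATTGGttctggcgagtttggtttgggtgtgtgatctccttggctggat
It lies at chr17:34287824-34288073 on the minus strand of GRCm38.p6, with TGACGTCA at base -74. TGACGTCA was present in 1.79% of all promoter windows and CCAAT in 37.4%, and CCAAT was found in the windows of 8 of 8 class II genes. No promoter window was at hand for H2-Ab1, so it was not searched and is named only.

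H2-Eb1, the I-E beta chain, read -4.64 in iHep and -3.49 in MF, a 2.23-fold lower signal in iHep. Its PH spot read 3.28 but was marked as an outlier by the scanner software and is not used. H2-Eb2 read -6.20 in iHep, -3.85 in PH and -7.18 in MF, the last not well above background, with PH at least 5.48-fold above MF, a direction that normexp turned to a log2 difference of -0.05.

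H2-DMa, a chain of the DM molecule that swaps peptides on class II, read -3.20 in iHep, -1.92 in PH and -2.10 in MF, so iHep was 2.14-fold below MF and 2.43-fold below PH. H2-DMb1, a beta chain of DM, was within 2-fold throughout, at -0.00 in iHep, 0.42 in PH and 0.87 in MF. H2-DMb2, the other DM beta chain, was well above background only in PH, where it read -4.75, at least 2.94-fold above MF, a direction that normexp turned to a log2 difference of -0.63. For the DO molecule, which restrains DM, H2-Oa read -6.74 in iHep, -3.51 in PH and -6.92 in MF, the last not well above background, with PH at least 6.95-fold above MF. H2-Ob, the DO beta chain, read -3.59 in iHep, -1.45 in PH and -5.10 in MF, which was 2.85-fold higher in iHep and 12.5-fold higher in PH than in MF. A second H2-Ob probe was well above background only in PH, at -1.80 against -9.65 in iHep and -8.54 in MF, so its PH over MF log2 difference was 6.73 where that of the first probe was 3.65. Normexp turned the iHep over MF log2 difference of the first probe to -0.30.

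The invariant chain and the class II transactivator were both highest in PH and, unlike H2-Ab1, higher in iHep than in MF. Cd74, the chaperone that fills the class II groove and routes it to endosomes, had a level of -1.03 in iHep, 2.28 in PH and -4.41 in MF. It was 10.5-fold higher in iHep than in MF, 103.3-fold higher in PH than in MF and 9.87-fold lower in iHep than in PH. Ciita, the master activator of class II transcription, had a level of -3.28 in iHep, -1.01 in PH and -5.32 in MF. It was 4.13-fold higher in iHep and 19.8-fold higher in PH than in MF, and 4.80-fold lower in iHep than in PH. Across settings the log2 difference of iHep over MF stayed between 1.90 and 3.40 for Cd74, while that of Ciita was turned to -0.04 by normexp.

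**Figure D2:**
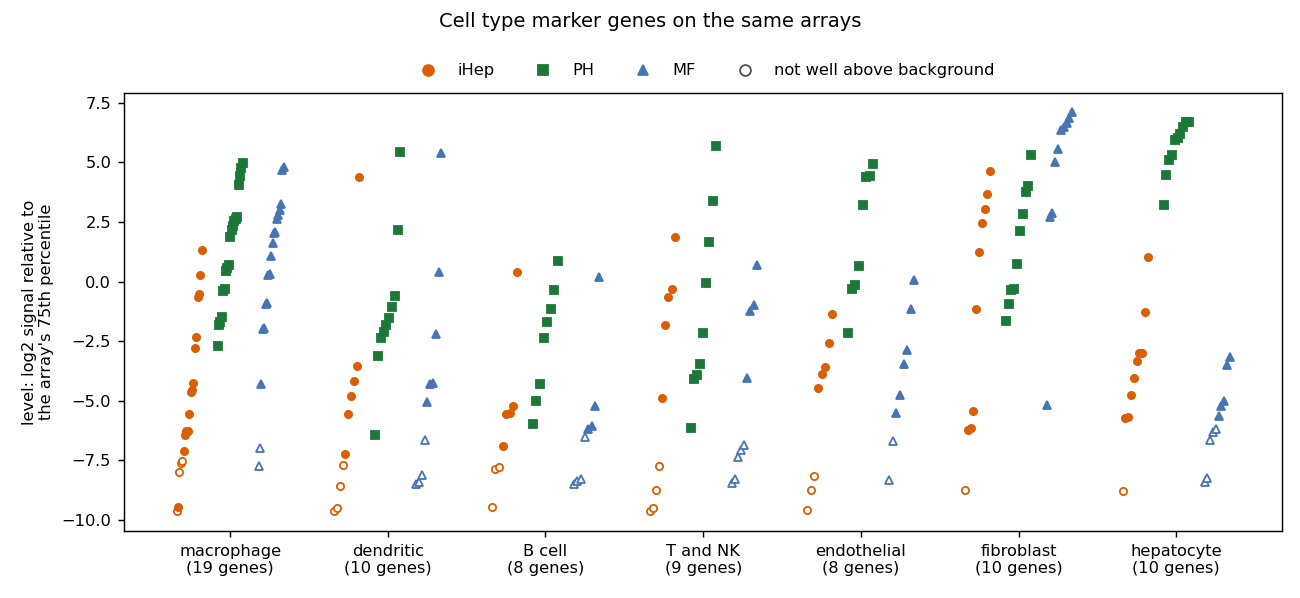
Level (log2 of signal over the array's 75th percentile) of each cell type marker gene on the iHep, PH and MF arrays, by list, each point a gene sorted by level and open where none of its probes was well above background. Most macrophage markers sit lower in iHep than in PH or MF, with summed signals of 5.57, 135.6 and 101.9 times the 75th percentile, and the endothelial markers sit highest in PH, with sums of 0.75 in iHep, 85.0 in PH and 1.77 in MF.

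Markers of cells that make class II also differed between the arrays, in some comparisons in the direction of the class II genes and in others not, and their part in the class II differences was not tested. Of 19 macrophage markers, 15 were well above background in iHep, 19 in PH and 17 in MF, with summed signals of 5.57, 135.6 and 101.9 times the 75th percentile. C1qa, C1qc, Lyz2 and Vsig4 were not above background in iHep, nor Cd163 and Cx3cr1 in MF. Adgre1 counted as above background in iHep only through a probe other than the one used, which read -9.47 there, below the dimmest resolved level of -7.32. In iHep over MF, 15 of the macrophage markers were lower and 1 higher, beside 23.4% and 20.0% of all genes. The markers' median log2 difference was -4.88, while Cd74 and Ciita were higher in iHep over MF and H2-Ab1 lower. In PH over MF, 7 macrophage markers were higher and 2 lower, beside 30.9% and 25.4% of all genes. Their median in PH over MF was 0.24, where the class II median was 3.51. Of 10 dendritic cell markers, 6 were above background in iHep, 10 in PH and 6 in MF, with sums of 21.0, 49.7 and 43.5, of which the single gene Siglech gave 99.0%, 86.3% and 96.2%. Gene by gene, 7 of 10 were higher in PH over MF, beside 30.9% of all genes, with a median log2 difference of 2.68. In iHep over PH, 9 of 10 were lower, beside 36.0% of all genes, with a median of -3.97 against -0.30 over all genes. In iHep over MF, 1 of 8 was higher and 3 were lower, beside 20.0% and 23.4% of all genes. The dendritic markers not above background were Cd209a, Irf8, Itgax and Xcr1 in iHep, and Ccr7, Cd209a, Clec9a and Xcr1 in MF. Of 8 B cell markers, 5, 8 and 4 were above background in iHep, PH and MF, with sums of 1.41, 3.63 and 1.18, mostly from Cd22 in iHep and MF, and 6 of 8 were higher in PH over MF. Blk and Ms4a1 were dim in iHep and MF, as were Cd79b in iHep and Fcmr and Pax5 in MF. The sums of 9 T and NK cell markers were 5.39 in iHep, 66.5 in PH and 2.61 in MF, and those of 8 endothelial markers were 0.75, 85.0 and 1.77. Cd4 alone gave 67.5%, 77.7% and 61.9% of the T and NK sums. Gene by gene, 8 of 9 T and NK markers and 8 of 8 endothelial markers were higher in PH over MF. The summed signal of each of these leukocyte and endothelial lists was thus highest in PH, but single genes weighed heavily in the sums. Siglech, which gave most of the dendritic sums, was nearly level between PH and MF, at 5.42 and 5.39. The macrophage median in PH over MF was only 0.24.

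Of 11 processing and regulatory genes, 6 were higher and none lower in PH over MF, beside 30.9% and 25.4% of all genes. In iHep over MF 3 were higher and none lower, beside 20.0% and 23.4% of all genes. In iHep over PH none was higher and 6 were lower, beside 23.2% and 36.0% of all genes. Their median log2 difference was 1.03 in PH over MF and -0.01 in iHep over MF. It was -1.03 in iHep over PH, where the authors' deposited values gave 0.06 over 7 genes.

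The transporter subunits and tapasin were within 2-fold on all arrays. Tap1, a subunit of the peptide transporter, had 10 spots and read -2.28 ± 0.05 in iHep, -2.00 ± 0.09 in PH and -1.49 ± 0.07 in MF (SD of spots on 1 array). Tap2, the partner subunit, read 2.19 in iHep, 2.24 in PH and 1.78 in MF. Tapbp, the tapasin that bridges TAP and class I, read 1.65 in iHep, 1.21 in PH and 1.66 in MF. Erap1, which trims peptides in the endoplasmic reticulum, read -1.06 in iHep, 0.11 in PH and -1.83 in MF, 3.84-fold higher in PH than in MF and 2.25-fold lower in iHep than in PH.

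The interferon-inducible proteasome subunits were not higher in iHep than in MF. Psmb8 read 0.02 in iHep, 0.41 in PH and 0.03 in MF, within 2-fold throughout. Psmb9 read -1.44 in iHep, 0.70 in PH and -0.92 in MF, so PH was 3.07-fold above MF and iHep 4.43-fold below PH. Psmb10 read 1.06 in iHep, 2.97 in PH and 1.93 in MF, so PH was 2.05-fold above MF and iHep 3.76-fold below PH.

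Nlrc5, the transactivator of class I genes, had a level of 2.12 in iHep, 1.48 in PH and -0.48 in MF, or 6.06-fold higher in iHep and 3.87-fold higher in PH than in MF. A second Nlrc5 probe read -4.87 in iHep, -4.17 in PH and -5.26 in MF, which put iHep within 2-fold of MF and PH above iHep, so the 6.06-fold value rests on 1 probe. The log2 difference of iHep over PH ran from -0.03 to 0.70 across settings, so its direction was not settled. H2-Ke6 read 0.83 in iHep, 2.23 in PH and 0.58 in MF, with PH 3.13-fold above MF.

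**Figure D3:**
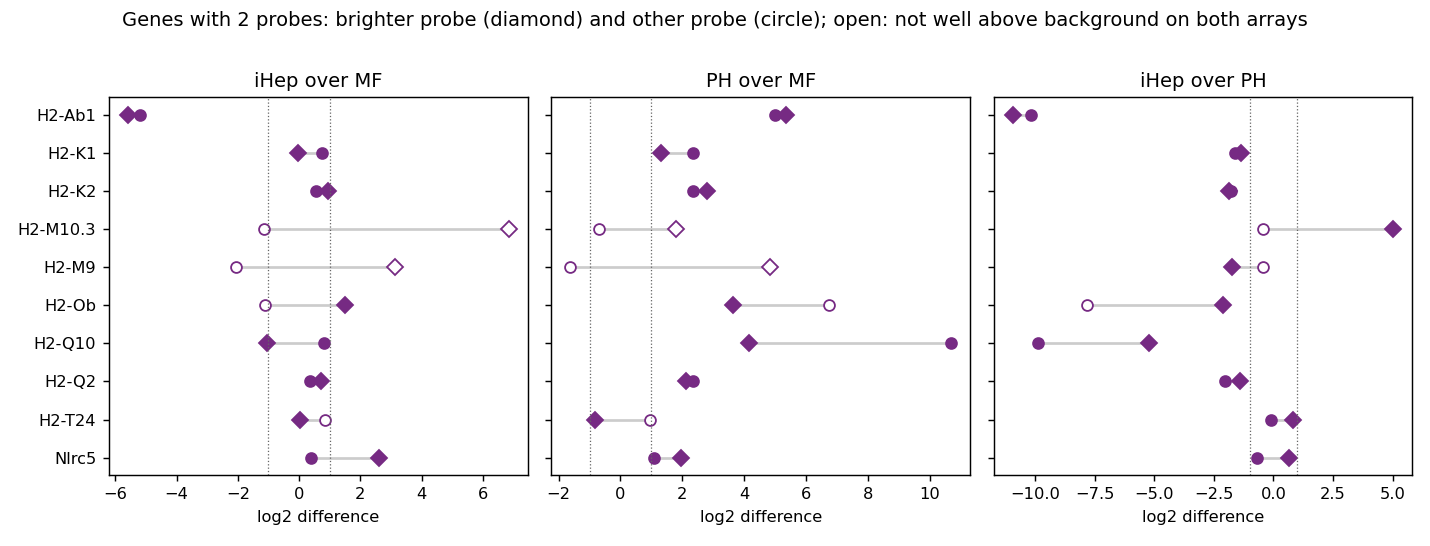
Log2 differences of the 10 members read by 2 probes, in the 3 comparisons of arrays, with a diamond for the brighter probe, a circle for the other, open points where a probe was not well above background on both arrays, and dotted lines at 2-fold. Both H2-Ab1 probes and both H2-Q10 probes put PH far above MF, while the Nlrc5 and H2-K1 probes differ on the size of iHep over MF.

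Related genes outside the rule were read from lists of the same pathways. Their counts stand beside the shares of all compared genes. Those shares were 20.0% higher and 23.4% lower in iHep over MF, and 30.9% higher and 25.4% lower in PH over MF. In iHep over PH they were 23.2% higher and 36.0% lower. Of 16 other class I loading genes, 2 were higher and 3 lower in iHep over MF, 2 higher and 5 lower in PH over MF, and 3 higher and 4 lower in iHep over PH, with medians of -0.68, -0.33 and -0.42. Psme1, an interferon-inducible proteasome activator subunit, read 2.05 in iHep, 4.98 in PH and 2.78 in MF. Psme3, a nuclear proteasome activator, read 2.94 in iHep, 5.29 in PH and 1.69 in MF. Both read highest in PH. The peptidase Thop1, which destroys cytosolic peptides, read 0.07 in iHep, -2.49 in PH and -1.15 in MF, and Npepps, a cytosolic aminopeptidase, read 1.15 in iHep, -0.31 in PH and 1.73 in MF.

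The class I-like genes outside the complex had a median log2 difference of -4.12 in iHep over PH, the lowest of the pathway lists, with -2.09 in iHep over MF and 2.12 in PH over MF. Of 6, none was higher and 5 were lower in iHep over MF, 4 were higher and 2 lower in PH over MF, and 1 was higher and 4 lower in iHep over PH. Cd1d1, which presents lipids to NKT cells, read -6.37 in iHep, 3.75 in PH and -0.48 in MF. Azgp1, a secreted class I-like protein, read -5.78 in iHep, 5.31 in PH and -6.96 in MF, the last not well above background. Both lay far below PH in iHep. Hfe, a regulator of iron uptake, was 20.4-fold lower in iHep than in PH, where it read 3.35 against 0.49 in MF, and Fcgrt, the neonatal Fc receptor chain, read -0.66 in iHep, 3.22 in PH and 1.84 in MF.

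Among 11 other genes of the class II path, none was higher and 8 were lower in iHep over MF, 1 was higher and 5 were lower in PH over MF, and none was higher and 3 were lower in iHep over PH. The medians were -1.93, -0.73 and -0.78 in that order. Ctss, the cathepsin that cuts the invariant chain in antigen-presenting cells and also a member of the macrophage list above, read -6.26 in iHep, 4.44 in PH and 4.69 in MF. Ctsd read 3.83 in iHep, 4.17 in PH and 6.52 in MF, and Ctsh read 1.17 in iHep, 4.11 in PH and 3.62 in MF, both lysosomal proteases. Ctss and Ctsh read at least 2-fold lower in iHep than on both other arrays, and Marchf1, a ubiquitin ligase that removes class II from the surface, read -1.79 in iHep, -2.08 in PH and 0.47 in MF.

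Of the costimulatory genes, 1 of 6 was higher and 3 were lower in iHep over MF, 3 of 7 were higher and none lower in PH over MF, and 1 of 7 was higher and 5 lower in iHep over PH, with medians of -0.80, 0.68 and -1.25. Cd40, the receptor for CD40 ligand, read 2.26 in iHep, -2.07 in PH and -2.75 in MF, which was 32.1-fold higher in iHep than in MF. Cd86, a ligand of CD28, was not well above background in iHep and read -0.73 in PH and -3.65 in MF. Cd80, also a ligand of CD28, read -1.84 in iHep, -0.75 in PH and -1.82 in MF, 2.09-fold higher in PH than in MF, and Icosl, the ICOS ligand, read -1.90 in iHep, -0.65 in PH and -0.32 in MF.

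Most regulators of the MHC genes were within 2-fold between arrays. Of 21, 2 were higher and 3 lower in iHep over MF, 3 higher and 3 lower in PH over MF, and 4 higher and 3 lower in iHep over PH, with medians of 0.21, -0.03 and -0.15. Nfkb1, a subunit of NF-kappa B, read 1.95 in iHep, 1.12 in PH and 0.20 in MF. Socs1, which restrains interferon signalling, read -0.06 in iHep, -1.85 in PH and -0.81 in MF. Both read brightest in iHep, as did Creb1, a factor that binds the cAMP response element, at -2.25 in iHep, -4.29 in PH and -2.73 in MF, while Ifnar2, an interferon receptor chain, read 1.06 in iHep, 2.69 in PH and 1.74 in MF.

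Interferon-stimulated genes went in both directions. Of 22, 9 were higher and 3 lower in iHep over MF, 8 higher and 5 lower in PH over MF, and 8 higher and 7 lower in iHep over PH, with medians of 0.50, 0.52 and 0.20. Rsad2, an antiviral enzyme, read 0.42 in iHep, -2.51 in PH and -3.55 in MF, and Usp18, which removes ISG15, read 2.54 in iHep, -1.61 in PH and -0.35 in MF. Those genes were highest in iHep, whereas Cxcl9, a T cell chemokine, read -3.70 in iHep, -1.19 in PH and -5.95 in MF, and Gbp5, an interferon-inducible GTPase, read -4.65 in iHep, -1.75 in PH and -5.90 in MF. Among 4 ligands of the NKG2D receptor measured, 1 was higher and 2 lower in iHep over MF, 1 of 3 higher and 1 lower in PH over MF, and 1 higher and 2 lower in iHep over PH, with medians of 0.05, 0.70 and -0.91. Raet1e read -0.73 in iHep, -0.55 in PH and 1.77 in MF. Ulbp1 read -5.24 in iHep, -3.44 in PH and -4.14 in MF, and H60c read -6.73 in iHep, -5.09 in PH and -7.94 in MF, the last not well above background. All 3 comparisons draw on the same 3 arrays, so the counts in them are not independent.

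The genes whose levels ran most like those of H2-K1 and H2-Ab1 were sought among 13887 genes above background on all 3 arrays, by the sum of absolute differences between centred levels over the 3 arrays. To H2-K1 the closest were Skint7, at 0.0126, then Cisd1, Fam160b2, Gfra4 and Phospho1. To H2-Ab1 the closest were Ptprb, at 0.257, then Cdo1, Ndrg2, Cd1d1 and Serping1, the last at 1.43. Over 3 arrays such likeness describes these libraries only.

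**Figure D4:**
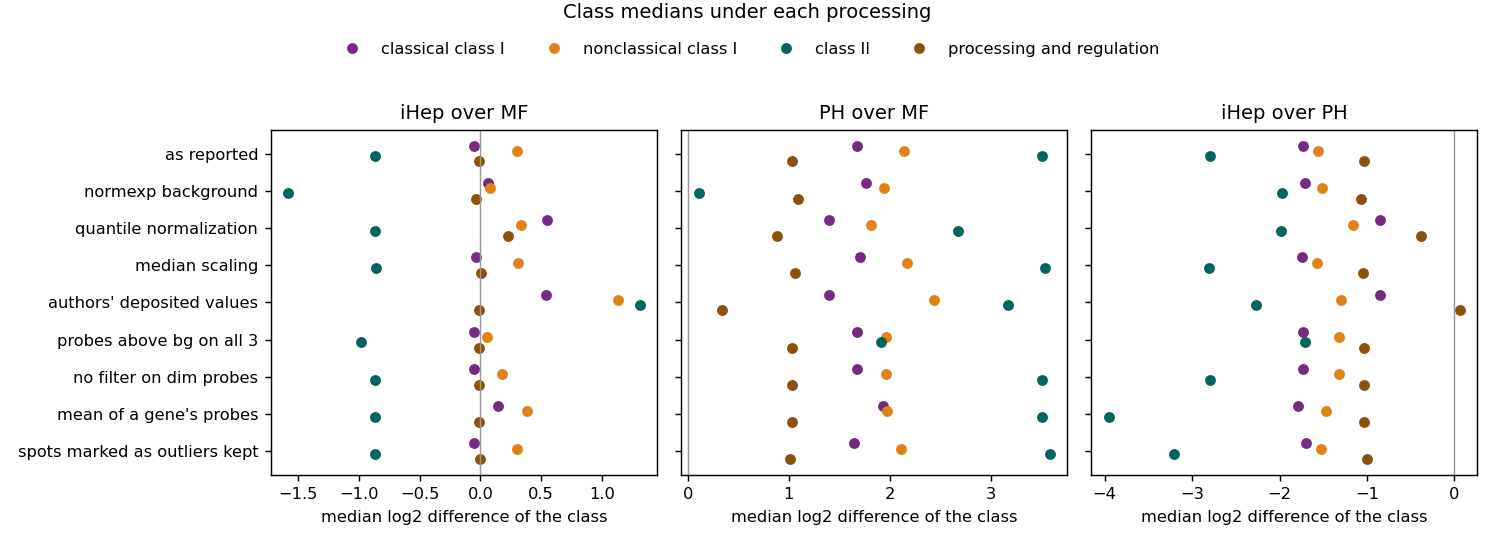
Median log2 difference of classical class I, nonclassical class I, class II and processing genes under each processing setting, in the 3 comparisons of arrays. The PH over MF medians stay above 0 in 9 settings, from 0.11 to 3.59 for class II, while the iHep over MF medians of classical class I, class II and processing genes lie on both sides of 0.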

How the data were processed

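RNA of 3 groups was read on 3 one-colour Agilent arrays, 1 per group. The labels' extraction protocol describes a blood RNA kit with removal of globin transcripts. The deposited scanner files hold intensity values: the processed signal, from which per the file headers the local background had been taken and spatial trends removed, and median signals. The headers name Feature Extraction 11.0.1.1 and the submitters' processing notes name 9.1. The authors' deposited table holds log2 values of 25993 probes, with column medians of 7.02, 7.08 and 7.03 for iHep, PH and MF, and its centring is not stated in the sources used here. It correlated with the scanner values at 0.998, 0.994 and 0.997 on those arrays.

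Here the processed signal was divided by the array's 75th percentile and taken to log2, control spots and spots marked as outliers were left out, and spots of a probe were averaged. For genes with several probes, the brightest probe by mean over the arrays was used. Names came from the array design's accessions (27228 of 39429 probes, 69.1%) through RefSeq. A gene was compared where its probe was well above background on at least 1 array of the pair. The step was tested on simulated data. With 1 array a group no test was possible. Python 3.11.15, pandas 2.3.3, R 4.3.3 and limma 3.58.1 were used. The number of arrays limits the precision.

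Every member above background on an array is named. Of each pathway list, up to 4 genes are named, those with the largest difference among genes above background on both arrays of a comparison, and 5 genes most like H2-K1 and H2-Ab1. The members and lists were chosen with earlier results of these data known. Of 169 list genes, 161 were matched. The alternatives were normexp, quantile normalization, median scaling, the authors' values, other fold limits, filters on dim probes, averaging a gene's probes and, chosen after seeing the data, keeping the spots marked as outliers. The planned normexp correction of mean signals was run on median signals, the column at hand, with an offset of 50 added to every array.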

Additional observations from a re-analysis of the deposited data

How the results depend on the processing

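Each group had 1 array, so no array could be left out. No paired analysis was possible because each group has a single array. Of 10 alternatives, 9 were planned and 1, keeping spots marked as outliers, was chosen after seeing the data. Counts of members at least 2-fold different moved by over 1.5 times as follows. The 4 lower in iHep over MF became 1 with quantile normalization, 0 of 26 compared with the authors' deposited values, 7 with no filter on dim probes, 1 at 4-fold and 9 at 1.5-fold. The 27 higher in PH over MF became 17 of 28 with the authors' values. The 2 lower in PH over MF became 4 with quantile normalization, 1 with only probes above background on all 3 arrays and 1 at 4-fold. The 3 higher in iHep over PH became 1 with only probes above background on all 3 arrays and 5 at 1.5-fold. The 28 lower in iHep over PH became 16 of 28 with the authors' values and 17 at 4-fold. The 9 higher in iHep over MF stayed between 6 and 13 over all 10. The authors' table holds fewer of the genes, and the filters and limits change the genes counted; for the rest the cause was not tested. Normexp turned the log2 difference of Ciita and H2-Ob in iHep over MF to -0.037 and -0.304. It turned that of H2-DMb2 and H2-Eb2 in PH over MF to -0.632 and -0.048. Normexp added the same offset of 50 to the signals of every array before scaling. The 75th percentile of the processed signal was 544.3 in MF, 2081 in PH and 3752 in iHep, so that offset weighs most on dim MF signals. Its part in these turns was not tested. The authors' values turned the processing genes' median in iHep over PH to 0.062. Of 928 single-gene values under the alternatives, 709 moved by less than the SD of repeated spots (0.120 to 0.132), 215 by more, and those 4 turned the direction of a gene called at 2-fold. Another 30 values had the opposite sign for genes not called, 34 in all over 23 of 125 results. Under normexp these included iHep over MF for H2-Q1 (-1.18), H2-T3 (-1.77), H2-Eb2 (-1.64) and H2-Oa (-2.01), and PH over MF for H2-M10.3 (-1.03). Many of the 709 values had little or no room to move. Median scaling shifted all genes of a comparison by the same small amount, and the filters left a gene's value unchanged where its probe stayed. Averaging probes could change only the 10 members with 2 probes. The 709 are therefore not a measure of stability. Genes near background, such as H2-M1, H2-Oa and H2-Eb2, are limited by signal over background, and no difference has a biological replicate.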
